A study of Mus musculus with 10 samples.

Results

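RNA from whole testes of Mov10-/- and wild type mice was compared across genes, with the genes ordered by the germ cell stage or the somatic cell type that they are known to mark. All RNA-seq libraries of the series were taken, which gave 6 of its 10 libraries, 3 from Mov10-/- testes (replicates 2, 3 and 4) and 3 from wild type testes (replicates 1, 2 and 3). Of 55421 genes in the count tables, 20240 had over 1 RPM (reads scaled by library size) in at least 3 of the 6 libraries and were tested, and 15731 of these code for protein. Mov10-/- mice lacked Mov10 in every tissue. They descended from mice with a loxP-flanked Mov10 allele crossed to Actb-Cre, in which the widely active β-actin promoter drives the recombinase, and were bred by intercrossing heterozygotes. The removed exons encode the first helicase domain, and their loss shifts the reading frame. The Mov10 mutant mice were on a mixed background of 129, C57BL/6 and FVB mice, and no background is stated for the wild type mice by themselves. All testes were taken on postnatal day 21 (P21). The sources used here do not say whether the animals were littermates, nor whether the replicate numbers match animals between genotypes.

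MOV10 is a cytoplasmic RNA helicase known as a restriction factor for LINE1 retrotransposons. In the testis its protein is known from Sertoli cells, which nurse the germ cells, and from spermatogonia and early spermatocytes. Spermatogonia divide and enter meiosis as leptotene and zygotene spermatocytes, pass through pachytene and diplotene, and become haploid round spermatids, which then elongate and pack their DNA with transition proteins and protamines. In the first wave of spermatogenesis each stage appears in turn as the mouse grows and at P21 round spermatids have only recently formed. The RNA was that of the whole organ, in which fewer cells of a type and less RNA per cell cannot be told apart.

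Between 5083407 and 9230540 reads were counted on genes per library, so that 1 read stood for 0.108 to 0.197 RPM. Where a library had no read of a gene, its level could still have been 0.325 to 0.59 RPM (3 reads, covering counting error only). The shallowest library, Mov10-/- 3, also had the largest share of unaligned reads, at 57.2% against 26.5% to 35.9% in the other libraries. Wild type 2 stood apart. Its chi-square over the degrees of freedom against the other wild type libraries was 16.1 and 18.8, and it was 5.79 between wild type 1 and wild type 3. Among the Mov10-/- libraries this measure was 4.33 to 11.1. Results that rest on wild type 2 are therefore given with and without it below. Levels are CPM, counts scaled by a library size that edgeR adjusts (TMM).

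Mov10, on chromosome 3 of mm10 (104794836 to 104818563), was lower in every Mov10-/- library. Its level was 114, 96.8 and 120 CPM in wild type 1, 2 and 3, and 29.2, 26.7 and 26.8 CPM in Mov10-/- 2, 3 and 4. The libraries of each genotype lay close together and far from those of the other, as their labels require. The log2 fold change was -2.00 (SE 0.12, adjusted p = 0.0055, quasi-likelihood test of edgeR with Benjamini-Hochberg adjustment). The reads that remained were counted over the whole gene, and which exons they came from was not analysed here.

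Mov10 was the only gene that this test called lower at an adjusted p under 0.05 with a fold change over 2, which is 0.00494% of the 20240 genes, and it called 0 genes higher (0.0%). At an unadjusted p under 0.05 there were 2414 lower and 1129 higher genes, before any limit on the fold. The other tests differed widely. The exact test of edgeR, which holds the dispersion of a gene as known, called 1031 genes lower and 70 higher, or 5.09% and 0.346% of all genes. DESeq2 called 988 lower and 51 higher, the likelihood ratio test of edgeR 1104 and 83, and voom of limma 1 and 1. The quasi-likelihood test with a replicate block, which in effect compares replicates 2 and 3 alone, called 148 and 36. Without wild type 2 the exact test called 470 lower and 42 higher (2.32% and 0.208%), and 468 of the 470 lower genes were also among the 1031. A further count needs no model. In 2858 genes (14.1%) all Mov10-/- libraries lay below all wild type libraries, and in 2414 genes (11.9%) all lay above. Against wild type 1 and 3 alone these shares were 16.0% and 13.5%. An exact permutation test of 3 against 3 libraries cannot give a p under 0.1, so that no single gene could pass 0.05 by that route. The median log2 fold change over all genes was 0.03.

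17 gene lists were used, of which 6 mark germ cell stages, 5 cells that belong to the testis interstitium or tubule wall, 1 the interferon response, and 5 tissues or cells that can adhere to a dissected testis. Of 376 genes written into the lists, 374 were found and 347 passed the limit on low levels. The values below are descriptions of these lists beside those of all genes, since the lists were chosen with earlier results of these data known.

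Spermatid genes were the lower genes among the germ cell lists, while the lists of the 4 earlier stages had medians between -0.13 and 0.21. Of 38 tested round spermatid genes (38 listed), 24 lay below wild type in every Mov10-/- library, or 63.2% against the 14.1% of all genes, and 0 lay above. The exact test called 20 of them lower, beside 5.09% of all genes, and DESeq2 called 18. Of 29 tested elongating spermatid genes (32 listed), 18 lay below and 0 above, and the exact test called 19 lower and DESeq2 20. The median log2 fold change was -1.95 for round spermatid genes (from -6.52 to 0.01) and -2.23 for elongating spermatid genes (from -5.67 to 0.02), beside 0.03 for all genes. The quasi-likelihood test called 0 genes of either list, with 25 of each at an unadjusted p under 0.05 and lower. Against wild type 1 and 3 alone the medians became -1.30 and -1.47 and the exact test called 6 and 8 genes. The numbers below stayed at 24 and 18. This was fixed in advance, since wild type 2 was the highest wild type library in all 38 and all 29 genes.

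**Figure D1:**
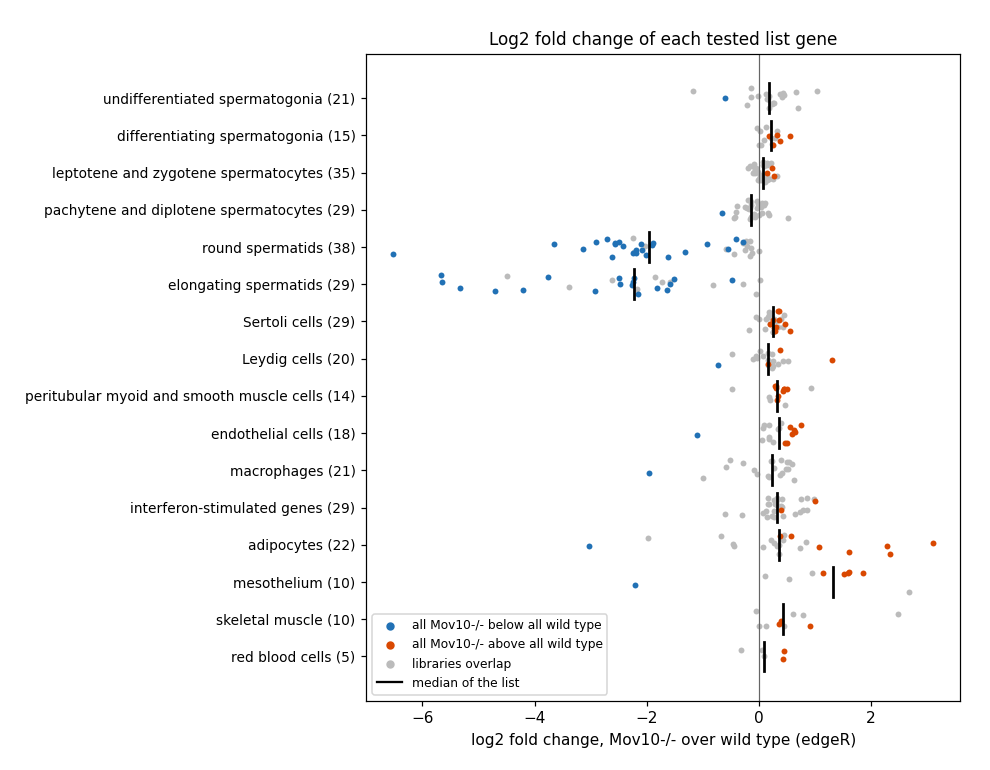
Each point is 1 tested gene, placed by its log2 fold change in Mov10-/- over wild type testes (horizontal axis, edgeR) within its list (rows, number of tested genes in brackets; the epididymis list, with 2 tested genes, is left out), and black bars are list medians. Blue points have all Mov10-/- libraries below all wild type libraries and orange points above. The 2 spermatid lists reach -6.52 and -5.67, and the other germ cell lists lie around 0.

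Within each genotype the spermatid genes also varied. For a list, the level in a library is the mean over its genes of the log2 CPM relative to the 6 libraries. For round spermatid genes it was 0.51, 1.61 and 0.11 in wild type 1, 2 and 3, and -1.28, -0.07 and -0.89 in Mov10-/- 2, 3 and 4. For elongating spermatid genes it was 0.86, 2.29 and 0.02 in wild type and -1.67, -0.24 and -1.26 in Mov10-/- testes. The genotypes did not overlap in either list, but wild type 3 and Mov10-/- 3 were close. Over the round spermatid genes the median log2 difference between Mov10-/- 3 and wild type 3 was -0.09, that between wild type 2 and wild type 3 was 1.59, and that between Mov10-/- 3 and Mov10-/- 2 was 1.14. The same 3 medians were -0.12, 1.77 and 1.70 over the elongating spermatid genes. Wild type 2 was the highest of the 6 libraries in 37 of the 38 round and 27 of the 29 elongating spermatid genes, and Mov10-/- 2 was the lowest in 33 and 23. The order of the libraries was thus largely shared by the spermatid genes. Because all testes were taken at 1 age and the sources give no measure of how far each had developed, genotype and the progress of the first wave in these few animals cannot be told apart.

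**Figure D2:**
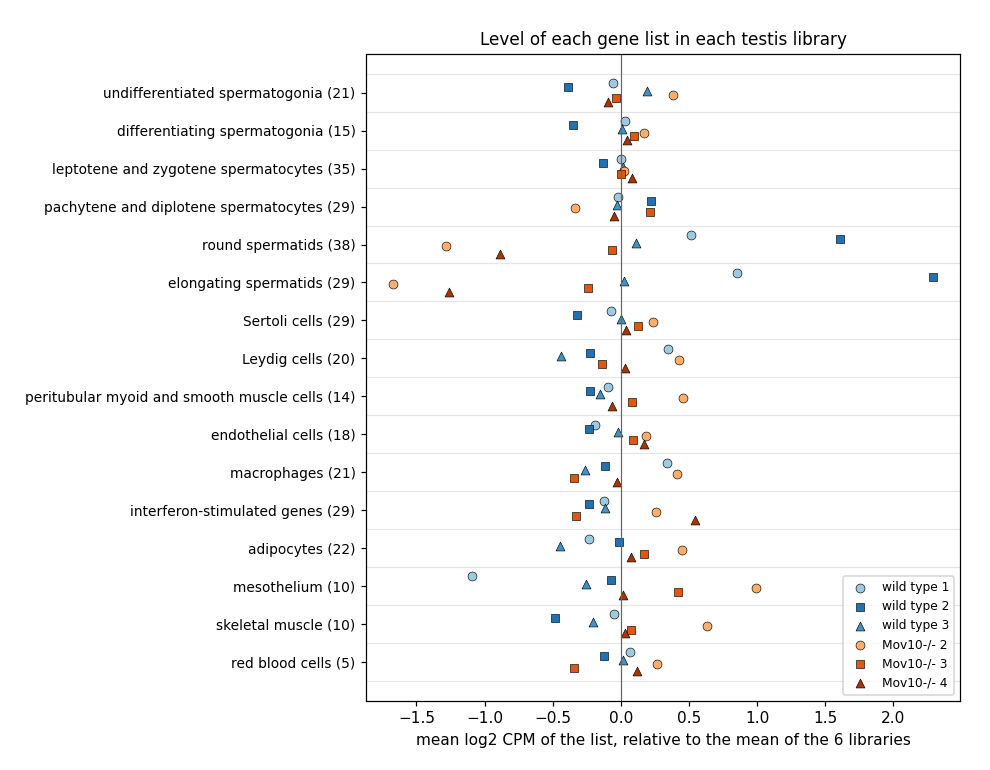
Points show the level of each list (rows, number of tested genes in brackets) in each library, as the mean log2 CPM of its genes relative to the mean of the 6 libraries (horizontal axis). For both spermatid lists wild type 2 is highest (1.61 and 2.29) and Mov10-/- 2 lowest (-1.28 and -1.67), with wild type 3 and Mov10-/- 3 next to each other in the middle.

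Among the acrosome genes of round spermatids, Spam1, the hyaluronidase of the sperm head (chromosome 6, 24791188 to 24801048), had the lowest p of its list. Its level was 28.3, 64.0 and 18.8 CPM in wild type 1, 2 and 3 and 3.60, 8.84 and 4.81 CPM in Mov10-/- 2, 3 and 4. Every Mov10-/- library lay below every wild type library, with Mov10-/- 3 and wild type 3 closest to each other. Its log2 fold change was -2.71 (SE 0.53, adjusted p = 0.15 by the quasi-likelihood test and 0.00058 by the exact test of edgeR). Acrv1, an acrosomal vesicle protein gene on chromosome 9, had 39.3, 89.0 and 26.6 CPM in wild type and 5.09, 25.3 and 9.13 CPM in Mov10-/- testes. Mov10-/- 3 was just below wild type 3 for this gene. The log2 fold change of Acrv1 was -2.01 (SE 0.64, adjusted p = 0.18 by the quasi-likelihood test and 0.042 by the exact test of edgeR). Without wild type 2 it was -1.37 and the exact test no longer called Acrv1, while it still called Spam1, at -2.06. Acr encodes acrosin, the acrosomal protease, whose RNA is known to appear already in pachytene spermatocytes. It had 91.9, 114 and 82.9 CPM in wild type and 61.7, 108 and 80.6 CPM in Mov10-/- testes, so that the genotypes overlapped, and the log2 fold change was -0.21 (SE 0.21).

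The size of the difference ran from none to the largest of any list within the round spermatid genes. The genes in this and the next paragraph were picked after their values were seen, to show both ends of that range. Dkkl1, Crisp2, Adam3, Adam5 and Zpbp2, all genes of the acrosome or the sperm surface, had log2 fold changes of 0.01, -0.11, -0.14, -0.15 and -0.16, and their libraries overlapped between genotypes. Crem, the transcription factor that drives many spermatid genes, had 109, 127 and 106 CPM in wild type and 79.5, 101 and 99.2 CPM in Mov10-/- testes, a log2 fold change of -0.29 (SE 0.13, adjusted p = 0.30 by the quasi-likelihood test of edgeR). Its genotypes did not overlap, but the gap was small. At the other end Prss55, a sperm serine protease gene, had 6.59, 48.1 and 1.40 CPM in wild type, and 0.372, 0 and 0.123 CPM in Mov10-/- testes, from 3, 0 and 1 reads. The value of wild type 3 came from 13 reads, and these few counts set its log2 fold change of -6.52 (SE 1.54). Catsper1, Catsper3 and Catsper4, of the sperm calcium channel, had log2 fold changes of -2.50, -2.90 and -2.25, and Catsper4 overlapped by 1 pair of libraries (20.6 CPM in Mov10-/- 3 and 19.5 in wild type 3). The testis-specific kinase genes Tssk1, Tssk2 and Tssk3 had log2 fold changes of -1.62, -2.19 and -2.24 and did not overlap.

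3 round spermatid genes serve to show promoter sequence beside their levels, since the transcription factor CREM binds a cAMP response element (CRE), of which TGACG (or CGTCA on the other strand) is the core site. Of the 31 round and 23 elongating spermatid genes tested that have a promoter in the RefSeq table (GRCm38.p6), 7 (22.6%) and 4 (17.4%) held the core site within the 250 bases before a start, on either strand, beside 27.2% of the 13641 tested genes and 19.8% of all 27025 genes in that table. The full palindrome TGACGTCA was present in 1 round spermatid gene, Izumo1, in 0 elongating spermatid genes and in 2.73% of the tested genes, and each full site also counts as a core site. The core site is in capitals and 20 bases stand on each side.
Izumo1: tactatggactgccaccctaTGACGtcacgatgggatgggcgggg
Spaca3: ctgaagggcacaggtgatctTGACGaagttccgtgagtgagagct
Lyzl4: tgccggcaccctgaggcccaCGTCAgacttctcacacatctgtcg
These windows lie at chr7:45621695-45621739 on the plus strand, chr11:80858281-80858325 on the plus strand and chr9:121587048-121587092 on the minus strand, each printed in the direction of its gene. Izumo1, the sperm protein that binds the egg receptor, had 23.6, 63.3 and 14.4 CPM in wild type and 3.60, 8.84 and 4.94 CPM in Mov10-/- testes; its exons overlap those of Rasip1 on the same strand, so that its count is less certain. Spaca3 and Lyzl4, lysozyme-like proteins of the acrosome, had log2 fold changes of -2.11 and -2.09, with libraries that did not overlap. The core site also stood before Spaca1, Tmem95, Tssk6, Zpbp2, Hspa1l, Odf2, Spata18 and Tcp11. Of these, Zpbp2, Odf2 and Tcp11 differed little between genotypes, as given in the other paragraphs. The values of the others are not given here. A match in these letters is a description and not evidence of binding, and the share of spermatid genes with the core site was no higher than that of all tested genes.

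Genes of elongating spermatids showed the same order of libraries with lower counts. Ropn1, a sperm flagellum protein gene on chromosome 16, had 30.5, 63.0 and 18.4 CPM in wild type and 3.60, 11.9 and 4.81 CPM in Mov10-/- testes. The groups did not overlap, and its log2 fold change was -2.50 (SE 0.58, adjusted p = 0.15 by the quasi-likelihood test and 0.0038 by the exact test of edgeR). Prm2, which encodes the second protamine, had 11.5, 58.9 and 1.61 CPM in wild type and 0.496, 1.85 and 0.987 CPM in Mov10-/- testes. Tnp1, which encodes a transition protein, had 10.7, 34.9 and 3.22 CPM in wild type and 0.744, 3.50 and 0.741 CPM in Mov10-/- testes. In both genes Mov10-/- 3 was slightly above wild type 3, so that the genotypes overlapped although the log2 fold changes were -4.49 and -3.38. Without wild type 2 these were -2.63 and -2.18, and the exact test of edgeR, which had called both lower, called neither. The exons of Tnp1 overlap those of 1700027A15Rik on the opposite strand. Prm1 and Fscn3 did not reach 1 RPM in 3 libraries and were not tested. Prm1 had 35, 188 and 8 reads in wild type 1, 2 and 3 and 1, 4 and 5 reads in Mov10-/- 2, 3 and 4, and Fscn3 had 17, 257 and 4 reads and 3, 1 and 1 reads. In both genes wild type 3 was close to the Mov10-/- libraries, and the reads came mostly from wild type 1 and 2.

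Akap4 and Akap3, genes of the fibrous sheath of the sperm tail, stood out among elongating spermatid genes for being well counted (chosen after their values were seen). Akap4 had 81.8, 192 and 46.9 CPM in wild type and 9.55, 33.1 and 16.2 CPM in Mov10-/- testes, a log2 fold change of -2.48. Akap3 had 122, 223 and 83.9 CPM and 23.3, 59.4 and 40.7 CPM, a log2 fold change of -1.81. Neither gene overlapped. Cabs1, Spem1 and Tnp2 had the lowest log2 fold changes of their list, at -5.67, -5.66 and -5.34, with under 1.5 CPM in every Mov10-/- library, while wild type 3 had only 1.40, 1.61 and 2.58 CPM. Odf2 and Tcp11, which are already transcribed in spermatocytes, had log2 fold changes of 0.02 and -0.04.

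**Figure D3:**
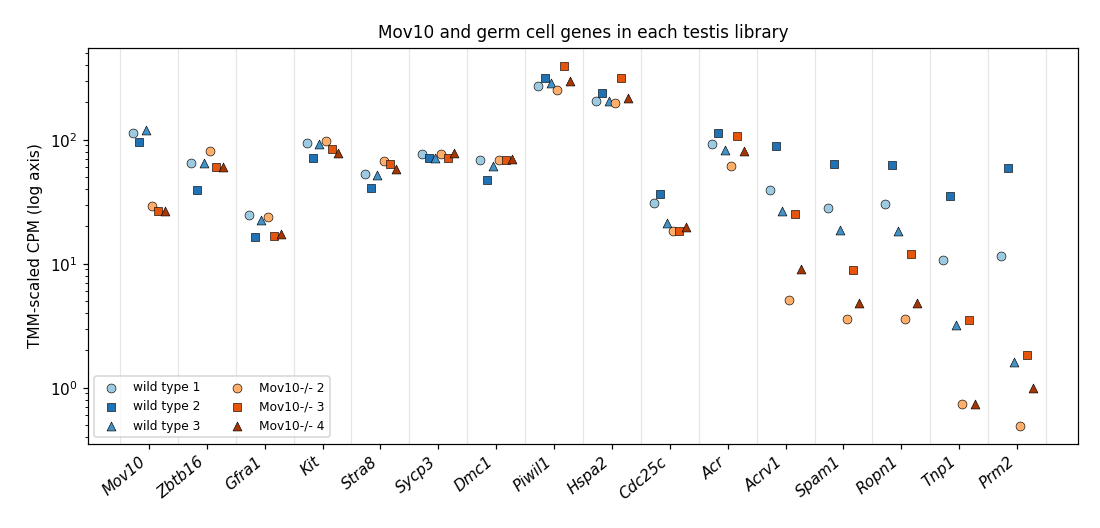
Points are the TMM-scaled CPM (vertical log axis) of Mov10 and of named germ cell genes, ordered by stage, in the 6 libraries (blue wild type, orange and brown Mov10-/-). Mov10 is separated widely, genes from Zbtb16 to Hspa2 lie within a narrow band, and Acrv1 to Prm2 spread over both genotypes, with wild type 2 at the top.

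Genes of pachytene and diplotene spermatocytes, the stage before spermatids, had a median log2 fold change of -0.13. Of 29 tested genes (30 listed), 1 lay below in every Mov10-/- library (3.45%, beside 14.1% of all genes) and 0 above (beside 11.9%). The exact test, DESeq2 and the quasi-likelihood test called 0 of them. By the quasi-likelihood test 1 had an unadjusted p under 0.05 and was lower. Piwil1, the PIWI protein of pachytene piRNAs, had 270, 313 and 289 CPM in wild type and 252, 397 and 298 CPM in Mov10-/- testes. Hspa2, a chaperone of meiotic cells, had 204, 237 and 205 CPM and 198, 315 and 218 CPM. Both genes overlapped, with log2 fold changes of 0.12 (SE 0.16) and 0.17 (SE 0.18). Cdc25c, a cell cycle phosphatase, was the gene that did not overlap, at 30.9, 36.6 and 21.4 CPM in wild type and 18.2, 18.3 and 19.7 CPM in Mov10-/- testes (log2 fold change -0.66, SE 0.23, adjusted p = 0.21 by the quasi-likelihood test of edgeR). The list varied within the Mov10-/- group, where Mov10-/- 2 was the lowest of all 6 libraries in 28 of the 29 genes and Mov10-/- 3 the highest of its genotype in 27. The list levels were -0.34, 0.22 and -0.05 in Mov10-/- 2, 3 and 4, and -0.02, 0.22 and -0.03 in wild type 1, 2 and 3. Nek2 was not tested, with 46, 62 and 4 reads in wild type and 3, 2 and 7 in Mov10-/- testes.

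Leptotene and zygotene genes were nearly level across libraries. Of 35 tested genes (37 listed), 3 lay above in every Mov10-/- library (8.57%, beside 11.9% of all genes) and 0 below (beside 14.1%). The median log2 fold change was 0.08 (from -0.19 to 0.34). Sycp3, which encodes a part of the synaptonemal complex, had 77.5, 71.2 and 71.4 CPM in wild type and 77.4, 71.3 and 78.3 CPM in Mov10-/- testes. Its libraries overlapped, with a log2 fold change of 0.05 (SE 0.10). Dmc1, the meiotic recombinase, had 69.0, 47.2 and 61.7 CPM and 68.5, 69.3 and 69.5 CPM. Wild type 2 was the low library, and it was the lowest of the 6 in 20 of the 35 genes. Gm4969, which had the lowest p of this list, did not overlap and had a log2 fold change of 0.28 (SE 0.14, adjusted p = 0.33 by the quasi-likelihood test of edgeR). Majin and Ccnb3 were too low to test.

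Spermatogonial genes gave medians of 0.19 (undifferentiated, 21 tested of 22 listed) and 0.21 (differentiating, 15 of 15). No gene of either list was called by the quasi-likelihood test (at an unadjusted p under 0.05, 1 lower and 1 higher undifferentiated gene, and 1 higher differentiating gene), the exact test or DESeq2. Among undifferentiated genes 1 lay below in every Mov10-/- library (4.76%, beside 14.1% of all genes) and 0 above (beside 11.9%). The gene below was Bcl6b, a transcription factor gene of stem cell renewal. It had 16.8, 21.1 and 20.9 CPM in wild type and 13.2, 14.2 and 11.6 CPM in Mov10-/- testes. Zbtb16, known as PLZF, had 64.5, 39.3 and 64.6 CPM and 81.9, 60.2 and 60.5 CPM. Gfra1, the GDNF receptor subunit, had 24.6, 16.3 and 22.4 CPM and 23.9, 16.7 and 17.3 CPM. Both genes overlapped. Among differentiating genes 5 lay above in every Mov10-/- library (33.3%, beside 11.9% of all genes) and 0 below. One of them was Stra8, the retinoic acid target of meiotic entry, at 52.6, 40.7 and 52.2 CPM in wild type and 67.7, 63.5 and 57.6 CPM in Mov10-/- testes (log2 fold change 0.38, SE 0.14, adjusted p = 0.24 by the quasi-likelihood test of edgeR). Kit, the receptor of differentiating spermatogonia, had 93.5, 71.6 and 92.7 CPM and 97.6, 84.3 and 78.9 CPM and overlapped (log2 fold change 0.02). Wild type 2 was the lowest library in 12 of the 21 and 12 of the 15 genes of these lists, and without it the medians were 0.07 and 0.12.

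**Figure D4:**
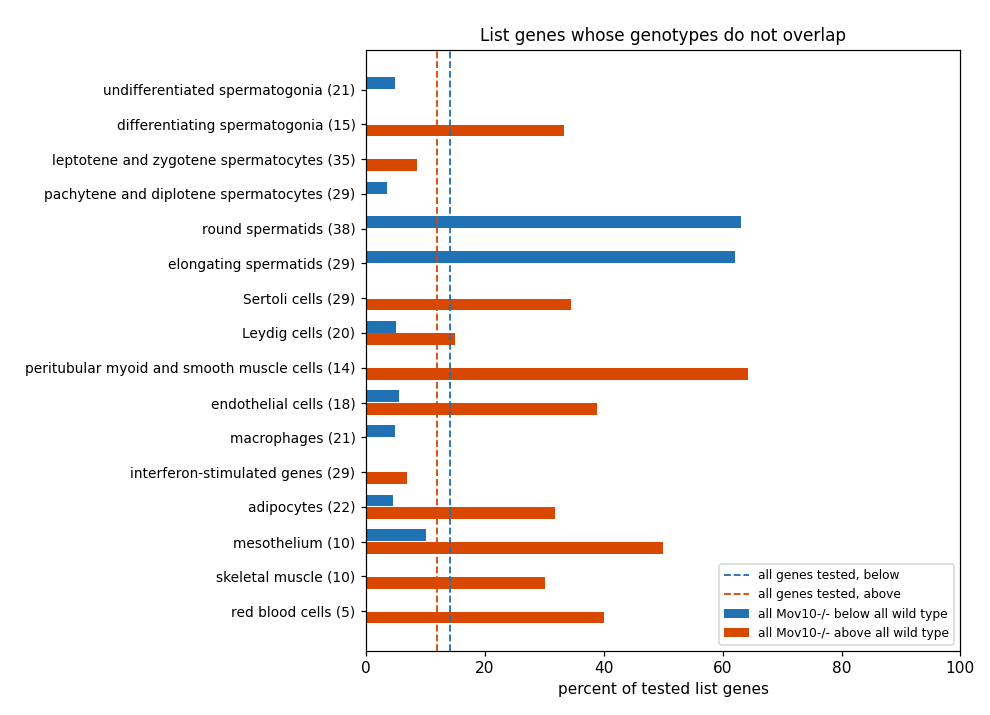
Bars give the percent of tested genes of each list (rows, number of tested genes in brackets) for which all Mov10-/- libraries lay below (blue) or above (orange) all wild type libraries, and dashed lines give the same for all 20240 genes (14.1% and 11.9%). Blue bars stand out for round (63.2%) and elongating (62.1%) spermatids. Orange bars stand out for peritubular, mesothelial, endothelial, Sertoli, differentiating spermatogonial, adipocyte and muscle genes, and the red blood cell bar (40%) is 2 of 5 genes.

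Sertoli cell genes were slightly higher in Mov10-/- libraries, by less than the fold threshold. Of 29 tested genes (31 listed), 10 lay above all wild type libraries (34.5%, beside 11.9% of all genes) and 0 below, and the median log2 fold change was 0.26 (0.17 without wild type 2). Sox9, the Sertoli cell transcription factor, had 64.7, 50.7 and 77.8 CPM in wild type and 93.2, 84.5 and 77.8 CPM in Mov10-/- testes. Wt1, which keeps Sertoli cell identity, had 101, 78.9 and 108 CPM and 129, 128 and 115 CPM and did not overlap. Espn, an actin bundler of Sertoli cell junctions, had 168, 129 and 167 CPM and 224, 266 and 192 CPM. Its log2 fold change was 0.55 (SE 0.15, adjusted p = 0.16 by the quasi-likelihood test and 0.025 by the exact test of edgeR), below the fold of 2 that a call needs. Rhox5 and Rhox8, both known from Sertoli cells, had 1 and 0 reads in all 6 libraries together.

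Leydig cell genes, which serve testosterone synthesis, mostly overlapped between genotypes. Of the 20 tested, 5 had a log2 fold change below 0, beside 9352 of all 20240 genes. The median log2 fold change was 0.17 over 20 tested genes (21 listed), of which 3 lay above (15%, beside 11.9% of all genes) and 1 below (5%, beside 14.1%) in every Mov10-/- library. The median ran from 0.05 without wild type 3 to 0.39 without wild type 1. Cyp11a1, which starts steroid synthesis, had 115, 93.0 and 67.7 CPM in wild type and 112, 77.7 and 78.8 CPM in Mov10-/- testes. Cyp17a1, which leads to androgens, had 118, 94.4 and 43.5 CPM and 94.3, 94.2 and 70.7 CPM. Both overlapped widely, with log2 fold changes of -0.04 (SE 0.22) and 0.02 (SE 0.33). Ptgds, a prostaglandin synthase gene, lay above in every Mov10-/- library, at 14.6, 5.48 and 5.48 CPM in wild type and 23.6, 17.5 and 22.2 CPM in Mov10-/- testes (log2 fold change 1.31, SE 0.42, adjusted p = 0.18 by the quasi-likelihood test of edgeR), and DESeq2 called it higher. The adult Leydig cell hormone gene Insl3 had 1 to 6 reads per library.

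Peritubular myoid and smooth muscle genes lay above in every Mov10-/- library in 9 of 14 tested genes (64.3%, beside 11.9% of all genes, 14 listed), with a median log2 fold change of 0.33. Acta2, smooth muscle actin, had 98.7, 98.2 and 93.3 CPM in wild type and 114, 138 and 103 CPM in Mov10-/- testes. Myh11, smooth muscle myosin, had 215, 151 and 206 CPM and 272, 238 and 215 CPM, and Mov10-/- 4 was about level with wild type 1. Tpm2 had 41.9, 37.1 and 41.8 CPM and 61.2, 57.8 and 46.5 CPM (log2 fold change 0.45, SE 0.15, adjusted p = 0.19 by the quasi-likelihood test of edgeR). No gene of this list was called by the exact test, DESeq2 or the quasi-likelihood test, where 5 had an unadjusted p under 0.05 and were higher. Mov10-/- 2 was the highest library in 11 of the 14 genes.

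Endothelial genes had a median log2 fold change of 0.36, with 7 of 18 tested genes (18 listed) above and 1 below in every Mov10-/- library (38.9% and 5.56%, beside 11.9% and 14.1% of all genes). Cdh5, the cadherin of endothelial junctions, had 37.2, 33.6 and 48.2 CPM in wild type and 64.5, 53.7 and 57.6 CPM in Mov10-/- testes (log2 fold change 0.56, SE 0.17, adjusted p = 0.17 by the quasi-likelihood test of edgeR). Pecam1 had 18.8, 19.0 and 23.0 CPM and 24.6, 22.4 and 22.1 CPM and overlapped. Sox17, a transcription factor gene of arterial endothelium, went the other way, at 24.5, 31.8 and 23.1 CPM in wild type and 10.5, 13.2 and 13.5 CPM in Mov10-/- testes. Its log2 fold change was -1.09 (SE 0.23, adjusted p = 0.15 by the quasi-likelihood test and 0.0083 by the exact test of edgeR). It was -0.94 without wild type 2, and the exact test then did not call it. Sox17 thus moved apart from the rest of its list, and its exons overlap those of Gm37587 on the opposite strand.

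Macrophage genes had a median log2 fold change of 0.23 over 21 tested genes (21 listed). In every Mov10-/- library 0 lay above and 1 below (0% and 4.76%, beside 11.9% and 14.1% of all genes). The median was 0.095 without Mov10-/- 2 and 0.47 without wild type 1. Csf1r, the receptor that macrophages depend on, had 80.6, 42.6 and 44.6 CPM in wild type and 102, 67.2 and 69.0 CPM in Mov10-/- testes, and Cd68 had 27.0, 18.6 and 18.3 CPM and 27.5, 23.2 and 25.9 CPM. Both overlapped, with wild type 1 as the high wild type library. Aif1 was the gene below, at 30.3, 80.0 and 18.5 CPM in wild type and 8.56, 15.6 and 9.26 CPM in Mov10-/- testes (log2 fold change -1.96, SE 0.54, adjusted p = 0.16 by the quasi-likelihood test and 0.014 by the exact test of edgeR). With wild type 2 left out it was -1.14, and the call by the exact test was lost. This is the library order of the spermatid genes, with wild type 2 highest and Mov10-/- 2 lowest, and not that of Csf1r or Cd68.

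Interferon-stimulated genes were examined because MOV10 is known from antiviral defence. The median log2 fold change was 0.33 over 29 tested genes (31 listed), of which 2 lay above and 0 below in every Mov10-/- library (6.90%, beside 11.9% of all genes). Oasl2, an interferon-induced gene of the oligoadenylate synthetase family, had 31.4, 17.4 and 24.9 CPM in wild type and 49.9, 43.4 and 54.9 CPM in Mov10-/- testes. It was the 1 gene of the list that the exact test called (log2 fold change 1.01, SE 0.23, adjusted p = 0.15 by the quasi-likelihood test and 0.0065 by the exact test of edgeR), and it was higher in 3 of 3 libraries. Its log2 fold change was 0.81 without wild type 2, below the fold threshold, and the exact test called 0 genes of the list. Ifit1 had 1.88, 2.88 and 2.79 CPM in wild type and 4.71, 2.06 and 8.02 CPM in Mov10-/- testes, and Isg15 had 2.36, 3.15 and 2.47 CPM and 3.10, 2.26 and 6.91 CPM. Both overlapped, since Mov10-/- 4 was high and Mov10-/- 3 low. The list levels were 0.26, -0.33 and 0.55 in Mov10-/- 2, 3 and 4, and -0.12, -0.24 and -0.12 in wild type 1, 2 and 3, so that the Mov10-/- libraries stood on both sides of the wild type libraries.

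Adipocyte genes included Cfd, which had the highest log2 fold change of any list gene (3.12, named after its value was seen). Of 22 tested genes (23 listed), the exact test called 5 higher (Car3, Cfd, Cidec, Fabp4 and Lpl, beside 0.346% of all genes) and 1 lower, DESeq2 called the same numbers, and without wild type 2 the exact test again called 5 higher. The list lay above in every Mov10-/- library in 7 genes and below in 1 (31.8% and 4.55%, beside 11.9% and 14.1% of all genes), with a median log2 fold change of 0.37 (0.20 without Mov10-/- 2). Car3, the carbonic anhydrase of fat and muscle on chromosome 3, had 5.06, 6.57 and 7.73 CPM in wild type and 39.3, 25.5 and 30.1 CPM in Mov10-/- testes. The groups lay far apart, and the log2 fold change was 2.29 (SE 0.27, adjusted p = 0.082 by the quasi-likelihood test and 2.1e-08 by the exact test of edgeR). Fabp4, the fatty acid carrier of fat cells, had 4.12, 3.97 and 4.51 CPM and 16.6, 9.87 and 11.8 CPM (log2 fold change 1.60, SE 0.30). Adipoq, the hormone gene that defines fat cells, had 2.59, 8.49 and 2.15 CPM in wild type and 7.07, 5.76 and 4.81 CPM in Mov10-/- testes, and it overlapped because of wild type 2. The summed level of the list was 838 to 986 CPM in Mov10-/- testes and 740 to 998 CPM in wild type testes, and these ranges overlapped. Aqp7, a glycerol channel gene that spermatids also express, was the lower gene, at 24.6, 89.0 and 13.4 CPM in wild type and 2.23, 9.46 and 4.44 CPM in Mov10-/- testes, again with wild type 2 highest and Mov10-/- 2 lowest. Its log2 fold change was -3.02, and without wild type 2 it was -1.87 and the exact test no longer called it. Whether fat that adhered to the testes had a part in these values was not tested.

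Mesothelium, the cell layer that covers the testis, had the highest median of any list, at 1.33 over 10 tested genes (10 listed), of which 5 lay above and 1 below in every Mov10-/- library (beside 11.9% and 14.1% of all genes). Upk3b had 0.707, 4.38 and 4.73 CPM in wild type and 16.1, 12.3 and 7.41 CPM in Mov10-/- testes, and Msln had 0.353, 2.60 and 2.58 CPM and 5.96, 6.99 and 3.95 CPM. Wild type 1 was far below the other wild type libraries in both, and neither gene was called (Upk3b log2 fold change 1.87, SE 0.63, adjusted p = 0.20, and Msln 1.60, SE 0.63, adjusted p = 0.25, by the quasi-likelihood test of edgeR). Muc16 was the lower gene, at 29.4, 71.9 and 15.7 CPM in wild type and 6.45, 13.2 and 6.05 CPM in Mov10-/- testes, with wild type 2 highest as for the spermatid genes. The exact test called it lower (log2 fold change -2.21), but not without wild type 2 (-1.42). Without Mov10-/- 2 the median was 0.84. The summed level of the list, Muc16 included, was 101 to 175 CPM in Mov10-/- and 97.2 to 137 CPM in wild type testes. The highest wild type sum, 137 CPM in wild type 2, held 71.9 CPM of Muc16. The part of the surface layer in these values was not tested.

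Several epididymis and skeletal muscle genes were high in single libraries. Crisp1, a protein of the epididymal duct, had 0.118, 12.7 and 24.6 CPM in wild type 1, 2 and 3 and 70.1, 0.411 and 0.494 CPM in Mov10-/- 2, 3 and 4. Adam7, likewise an epididymal gene and too low to test, had 1, 6 and 55 reads and 163, 0 and 0 reads. Both genes were thus high in Mov10-/- 2 and, at lower levels, in wild type 3. Of 12 epididymis genes 2 were tested, Crisp1 and Rnase10, and Rnase10 had 17.4, 22.7 and 7.30 CPM and 0.124, 8.02 and 0.123 CPM, another order of libraries. Acta1, skeletal muscle actin, had 0.353, 3.56 and 1.18 CPM in wild type and 25.9, 1.23 and 0.741 CPM in Mov10-/- testes. Ckm, muscle creatine kinase and too low to test, had 45 reads in Mov10-/- 2 and 1 to 5 in the other libraries. Over the 10 tested skeletal muscle genes (13 listed) the median log2 fold change was 0.43, and 3 lay above in every Mov10-/- library (30% beside 11.9% of all genes) and 0 below. Actn3, a muscle actinin gene, was one of them, at 56.8, 52.9 and 46.2 CPM in wild type and 75.2, 69.1 and 61.8 CPM in Mov10-/- testes (log2 fold change 0.40), while Myh1 overlapped (0.62). Mov10-/- 2, the library with the lowest spermatid levels, was thus also the highest for Crisp1, Adam7, Acta1 and Ckm. The part of adherent tissue in the other results was not tested, but each can be given without this library. The medians were then -1.57 for round and -1.87 for elongating spermatid genes, 0.22 for Sertoli cell and 0.25 for peritubular genes. The genes of these lists that did not overlap again numbered 24 of 38, 18 of 29, 10 of 29 and 9 of 14. Leaving out a library can only keep or raise such a number, so that these numbers cannot show whether the results rest on this library. With this library left out the shares of all genes were 16.7% below and 16.5% above. Red blood cell genes, 5 tested of 8 listed, had a median log2 fold change of 0.09. The 2 genes that lay above in every Mov10-/- library (40%, beside 11.9% of all genes) were Hbb-bs and Hba-a1, and 0 lay below. Hbb-bs and Hba-a1, globin genes with near-identical copies whose reads cannot be placed with certainty, had log2 fold changes of 0.46 (SE 0.21) and 0.43 (SE 0.28).

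**Figure D5:**
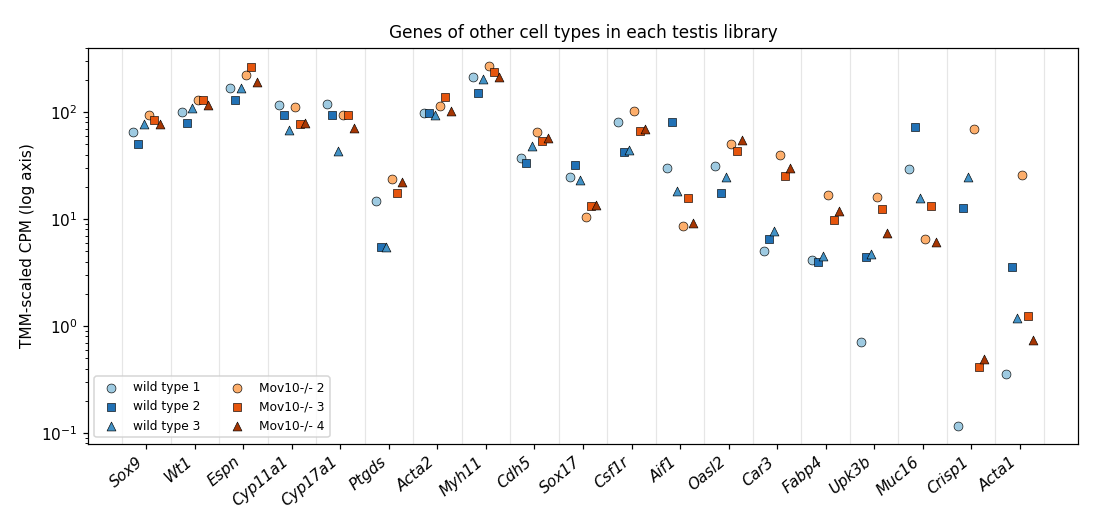
Points are the TMM-scaled CPM (vertical log axis) of named genes of somatic cells and neighbouring tissues in the 6 libraries (blue wild type, orange and brown Mov10-/-). Car3 and Fabp4 are above in every Mov10-/- library, Sox17, Aif1 and Muc16 below, and Crisp1 and Acta1 are highest in Mov10-/- 2 (70.1 and 25.9 CPM).

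Outside the lists, the 4 protein-coding genes with the lowest p in each direction did not overlap between genotypes. Gm10260 had 0.824, 0.548 and 0.859 CPM in wild type and 10.2, 18.1 and 10.5 CPM in Mov10-/- testes, and Gm10406 had 0.236, 0.137 and 0.107 CPM and 3.10, 3.50 and 3.21 CPM. Each had an adjusted p of 0.059 by the quasi-likelihood test of edgeR. Phyhip and Sytl1 were also higher in Mov10-/- testes. Phyhip had 2.47, 3.29 and 4.62 CPM and 18.6, 13.6 and 17.9 CPM, and Sytl1, a gene of vesicle transport, had 1.53, 1.23 and 0.967 CPM and 7.20, 5.76 and 7.41 CPM. The other 4 genes were lower in Mov10-/- testes. AU021092 had 28.9, 29.4 and 25.8 CPM in wild type and 8.93, 5.35 and 8.27 CPM in Mov10-/- testes. Gm3029 had 2.36, 2.74 and 3.54 CPM and 0.124, 0.206 and 0.123 CPM. Ssxb5 and Ssxb8, neighbouring members of 1 family on chromosome X, had log2 fold changes of -3.53 (SE 0.50) and -3.44 (SE 0.53). Gm10260, Gm10406, Gm3029, Ssxb5 and Ssxb8 belong to families with similar copies or pseudogenes, so that their counts are uncertain.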

How the data were processed

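Testis RNA had been extracted with TRIzol and made into TruSeq stranded mRNA libraries, which select polyadenylated RNA. Per the methods of the study, reads were trimmed of adapters, aligned with STAR to mm10 and counted per gene with htseq-count on Ensembl version 99. Versions of these tools are not given in the sources used here. The authors deposited raw counts per gene, without normalization. Rows of reads outside genes, ambiguous or not aligned (52.8% to 71.7% of the reads of a library) were left out. The 4 CLIP-seq libraries were not used here. Gene names and coordinates came from a GRCm38 annotation that matched 55240 of 55421 genes, and 77 of the 347 tested list genes had exons that overlap another gene.

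Counts were fitted with edgeR 4.0.16 (TMM, quasi-likelihood test, Benjamini-Hochberg adjustment over 20240 genes) in R 4.3.3, with DESeq2 1.42.0 and limma 3.58.1 as alternatives, and tested on simulated data. Tables and figures used Python 3.11.15. The study named edgeR but not its test. Named genes were Mov10, the first 2 tested genes and the gene of lowest p in each list, every called gene, and 4 protein-coding genes per direction outside the lists; others are said to be chosen after their values were seen, as were the untested genes given by their reads and the genes named for overlap, family or a promoter match. The members and lists were chosen with earlier results of these data known. P-values measure the spread between the libraries of each genotype. Per the methods of the study, the RNA of each sample came from a pair of testes.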

Additional observations from a re-analysis of the deposited data

How the results depend on the processing

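Under the alternatives, 827 values of single named genes kept their direction and their side of the threshold, 64 newly passed it, 3 no longer did and 17 changed sign. Of list medians, 243 moved by less than the spread between replicates and 9 by more. The choice of test moved the number of called genes most. Lower and higher genes numbered 1 and 0 with the quasi-likelihood test, 988 and 51 with DESeq2, 1031 and 70 with the exact test, 1104 and 83 with the likelihood ratio test, 1 and 1 with voom, 3 and 3 with library totals alone, and 5 and 5 with no filter. Relative log expression factors, upper quartile factors and filterByExpr each gave 1 lower and 0 higher, as with TMM and the 1 RPM filter. Without wild type 2, an alternative chosen after seeing the data, the exact test called 470 and 42 and DESeq2 214 and 30.

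With the replicate number as a block the quasi-likelihood test called 148 lower and 36 higher genes. Only the numbers 2 and 3 occur in both genotypes, so that wild type 1 and Mov10-/- 4 add nothing to this estimate of the difference. The labels do not say that the numbers pair animals. Deviations from the group means correlated at -0.463 between the libraries numbered 2 and at -0.344 between those numbered 3. Between Mov10-/- 3 and wild type 2 the correlation was 0.453. The deviations of a genotype cancel out over its few libraries, so that these values cannot show whether animals were matched. Under the block the median log2 fold change was 0.61 for adipocyte, 0.80 for skeletal muscle and 0.37 for red blood cell genes, 0.50 for Leydig cell, 0.49 for macrophage and 0.16 for interferon-stimulated genes, and the log2 fold changes of Gfra1, Cyp11a1, Isg15 and Crisp1 were 0.064, 0.23, -0.072 and -0.91, opposite in sign to those without it. With voom Crisp1 was at -0.28 and the epididymis median at -2.49.

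Leaving out 1 replicate at a time gave 0 to 2 lower and 0 higher genes by the quasi-likelihood test. Mov10 stayed between -2.08 and -1.94 on the log2 scale, but its adjusted p by the quasi-likelihood test of edgeR was 0.111 without Mov10-/- 3, 0.146 without Mov10-/- 4 and 0.0516 without wild type 3, which ended the call. The cause was not tested. The median was -2.66 to -1.30 for round spermatid genes, 0.27 to 0.51 for endothelial genes, -3.39 to -0.26 for epididymis genes and 0.27 to 0.92 for skeletal muscle genes. It was 0.049 to 0.39 for Leydig cell, 0.095 to 0.47 for macrophage, 0.17 to 0.45 for interferon-stimulated, 0.20 to 0.51 for adipocyte, 0.069 to 0.38 for undifferentiated spermatogonial and -0.20 to -0.027 for pachytene and diplotene genes. The log2 fold change changed sign for Kit (-0.098 to 0.083), Piwil1 (-0.078 to 0.25), Hspa2 (-0.050 to 0.30), Cyp17a1 (-0.30 to 0.29), Cyp11a1 (-0.23 to 0.13), Crisp1 (-4.72 to 1.91) and Acta1 (-0.81 to 3.58), and the last 2 were lowest without Mov10-/- 2. No scaling moved the median of all genes by over 0.1. Depth limits genes with few reads, such as Prss55, with 3, 0 and 1 reads in Mov10-/- testes.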

Other observations

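Several classes of noncoding genes differed more often in the lower direction, and the 2 with the highest shares below are given first. Of 1196 tested long intergenic noncoding RNA genes (lincRNA), 403 lay below wild type in every Mov10-/- library (33.7%, beside 14.1% of all genes). Another 37 lay above (3.09%, beside 11.9% of all genes), and the median log2 fold change was -0.55. The exact test of edgeR called 182 of them lower and 4 higher (15.2% and 0.334%, beside 5.09% and 0.346% of all genes). Of 836 antisense genes, 233 lay below (27.9%) and 25 above (2.99%), with a median of -0.43. The shares below and above were 25% and 8.04% for transcribed processed pseudogenes, and 23.4% and 7.21% for unprocessed pseudogenes. They were 23.2% and 4.24% for processed transcripts, and 21.1% and 4.07% for noncoding genes at bidirectional promoters. Of 15731 protein-coding genes, 1840 lay below (11.7%) and 2126 above (13.5%), with a median of 0.06, and of 931 processed pseudogenes 95 lay below (10.2%) and 84 above (9.02%). The level of the lincRNA genes, as the mean log2 CPM relative to the 6 libraries, was 0.20, 0.66 and 0.18 in wild type 1, 2 and 3 and -0.58, -0.19 and -0.26 in Mov10-/- 2, 3 and 4, the same highest and lowest library as for the spermatid genes. Without wild type 2 the medians of lincRNA and antisense genes were -0.41 and -0.30.

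On chromosome X the median log2 fold change of the 661 tested protein-coding genes was 0.18, but 0.042 without wild type 2 and 0.022 without Mov10-/- 2. The exact test called 66 lower (9.98%) and 0 higher, and without wild type 2 it called 41 lower and 0 higher. Of all 15731 tested protein-coding genes it called 630 lower (4.005%), and 286 without wild type 2. Chromosome X was not alone in this. On chromosome 14 the exact test called 43 of 600 genes lower (7.17%), and 27 without wild type 2. There 112 genes (18.7%) lay below in every Mov10-/- library, a larger share than the 99 of 661 on chromosome X. Of all 15731 tested protein-coding genes, 1840 (11.7%) lay below in every Mov10-/- library. Genes called lower by the exact test were mostly of low level. With all genes split by mean level into 4 groups of 5060, they made up 7.77%, 9.37%, 2.94% and 0.296% of the groups from the lowest to the highest.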
